A study of Rattus norvegicus with 6 samples.

Results

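Respiratory complex I, the NADH:ubiquinone oxidoreductase of the inner mitochondrial membrane, was measured as the messenger RNA of its nuclear-encoded subunits in the left atria of 6 rats. Of 36 subunit genes listed by name, 33 had a probe set that the array's annotation assigns to that gene alone, out of 11237 genes measured in all. Ndufa13, Ndufc1 and Ndufs6 had none and are not analysed here. The study kept probe sets with a log2 signal above 5 on at least 1 array, and all 33 lay above that on all 6, so none of them entered through 1 group. Where a gene had more than 1 probe set, the brightest on average stands for it.

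The rats were adult male Sprague-Dawley rats with an implanted pacing electrode. In 3 of them the atria were driven at a cycle length of 70 ms (rapid atrial pacing, RAP) for 48 hours, and in the other 3 at 140 ms (control pacing, Con). All 6 had atenolol, a beta blocker, in the drinking water and received heparin before the heart was removed, and the ventricles beat at the same rate in both groups, so the controls were paced animals and not rats in sinus rhythm. A RAP rat and its control were operated on and paced together in adjacent cages, which gives pairs 1 to 3, with 1 whole-transcript array for each rat. More pairs than these completed the pacing, and the study put only the 3 with RNA of high quality on arrays. The comparison asks how a faster atrial rate alone relates to the RNA of the left atrium. Whole tissue was hybridized, so fewer cells of a type and less RNA per cell cannot be told apart.

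Complex I takes electrons from NADH, passes them along a chain of iron-sulfur clusters to ubiquinone and pumps protons across the membrane, and in the heart it is the main entry of electrons into the respiratory chain. Its matrix arm holds the N module, where NADH is oxidized, and the Q module, where ubiquinone is reduced, and its membrane arm holds the proton channels. The core subunits carry the catalysis and are conserved from bacteria, while the accessory subunits surround the core and are needed for assembly and stability. The core proteins of the membrane arm are encoded by mitochondrial DNA and are not analysed here, so the 6 core subunits below (Ndufs1, Ndufs3, Ndufs7, Ndufs8, Ndufv1 and Ndufv2) all belong to the matrix arm. The other 27 genes are accessory, among them Ndufa4, which is now counted as a subunit of complex IV.

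The 6 arrays carried the atrial genes Nppa and Myl7 at log2 signals of at least 13.40, but several arrays stood apart in markers of other tissue. Ventricular markers (5 genes) were all higher in Con 3 than in the other controls, and Myl2, the ventricular myosin light chain, stood at 8.60 there and between 4.28 and 4.89 on the other arrays. Erythroid markers (5 genes) had a median deviation from their own means over the 6 arrays of 2.05 in Con 3 and between -0.91 and -0.05 elsewhere. In RAP 3, adipocyte markers (10 genes) stood at 0.93, against 0.24 in Con 3 and -0.51 to -0.09 on the other arrays. Ucp1, the uncoupling protein of brown fat, had a log2 signal of 6.92 in RAP 3 and of 4.16 to 4.71 elsewhere. Con 2 was the highest array in macrophage markers (12 genes, 1.13, against -0.67 to 0.17 elsewhere) and Con 1 in mesothelial markers (6 genes, 0.95, against -0.81 to 0.16). Con 3 and RAP 3 form pair 3, and results are therefore given for each pair.

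In pairs 1 and 2 every one of the 33 subunits was higher with RAP, and in pair 3 only Ndufa9, Ndufv1 and Ndufs8 were. The changes (log2 RAP minus Con) ran from 0.05 (Ndufa2) to 0.75 (Ndufs4) in pair 1, from 0.42 (Ndufs5) to 1.54 (Ndufa10) in pair 2 and from -1.28 (Ndufb4) to 0.40 (Ndufa9) in pair 3. The median over the 33 genes was 0.51, 0.73 and -0.51 in pairs 1, 2 and 3, where the median over all 11237 genes was -0.002, -0.02 and 0.01. The remaining 30 subunits were thus higher in pairs 1 and 2 and lower in pair 3, a sequence that 19.4% of all genes show. Among the controls Con 3 had the highest signal for 33 of 33 subunits (36.6% of all genes), and RAP 2 was the highest of the 6 arrays for 33 of 33 (21.8% of all genes). RAP 3 was the lowest of the RAP arrays for 30 of 33 (4059 of all 11237 genes). The subunits therefore ordered the arrays nearly alike, with Con 1 and Con 2 low, RAP 2 high, and Con 3 above RAP 3 in most genes.

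**Figure D1:**
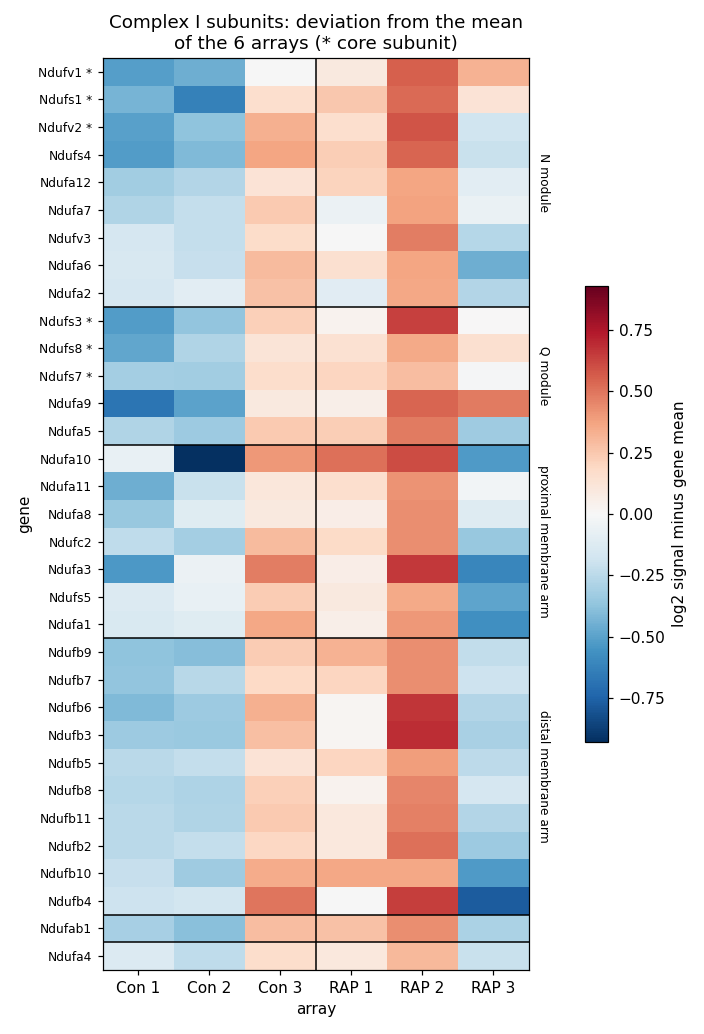
Deviation of each of the 33 subunits from its own mean over the 6 arrays (log2 signal, colour scale), with the arrays in columns, the genes in rows grouped by module, and core subunits marked with an asterisk. RAP 2 is the highest array in every row and Con 3 the highest control. RAP 3 is blue in most accessory subunits and in the core subunit Ndufv2. It is red or near white in Ndufv1, Ndufs1, Ndufs8, Ndufs3, Ndufs7 and Ndufa9, and near white also in the accessory Ndufa11 and Ndufa7.

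In a limma fit blocked on the pair, 2 of the 33 subunits rose, Ndufa9 and Ndufv1, and 0 fell at the study's thresholds, a fold change above 1.3 with an unadjusted p under 0.05. Standard errors (SE) are those of the moderated fit. Over all genes 2.94% rose and 3.45% fell, so 2 of 33 is a share near the background. After Benjamini-Hochberg adjustment over all probe sets limma gave 0 subunits under 0.05, with a smallest adjusted p of 0.76 among them, and 2 had an unadjusted p under 0.05. Array weights were 4.91 for both arrays of pair 1, 0.62 for those of pair 2 and 0.33 for those of pair 3. In a fit blocked on the pair the 2 arrays of a pair get equal weights, so these weights cannot tell them apart. With these weights 9 subunits had an adjusted p under 0.05 by limma, the smallest 0.037, in a fit where 10.3% of all genes rose. That fit rests largely on pair 1. The median change of the 33 was 0.26, with 29 of 33 above 0, against a median of -0.01 over all genes. Without the pair as a block 4 subunits rose (3.62% of all genes), with array weights 21 (10.3%), and by the methods' paired test 0 (1.06%). Pairs 1 and 2 alone gave 26 rises among the 33 where 9.49% of all genes rose, and without replicate 1 or replicate 2 the rises numbered 0 and 1 (0.516% and 1.46% of all genes). Without Con 3 alone, in a fit without pairs, 11 subunits rose where 6.85% of all genes did. The count thus rests on which pair enters, and the median of the 33 was -0.038 without replicate 2.

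Ndufa9, an accessory subunit of the Q module near the site where ubiquinone enters, had the largest change of the 33. Its log2 signal was 9.69, 9.87 and 10.46 in Con 1, 2 and 3 and 10.43, 10.91 and 10.86 in RAP 1, 2 and 3. RAP was higher in every pair (0.73, 1.04 and 0.40), and the groups overlap only in that Con 3 lies just above RAP 1. The rise was 0.72 (SE 0.17), or 1.65-fold (limma unadjusted p = 0.0097, adjusted p = 0.76). Without replicate 1 the difference was 0.72 and no longer passed.

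Ndufv1, the core subunit that binds NADH and the flavin FMN, stood at 10.47, 10.53 and 10.98 in the controls and at 11.08, 11.54 and 11.30 with RAP. Every RAP array lay above every control, and the rise was 0.64 (SE 0.18), or 1.56-fold (limma unadjusted p = 0.017, adjusted p = 0.76). Leaving out replicate 1 or replicate 2 gave 0.67 and 0.46, neither of which passed. Ndufs8, a core subunit with iron-sulfur clusters on the path to ubiquinone, was the other gene without overlap, at 9.46, 9.66 and 10.05 in the controls and 10.08, 10.29 and 10.09 with RAP. Its difference of 0.43 (SE 0.18) did not pass (limma unadjusted p = 0.065), and in pair 3 it was 0.03. Groups without overlap, RAP higher, were thus found in 2 of 33 subunits, where 7.57% of all genes have them, and the reverse in 0 of 33 (7.85% of all genes). A difference in the same direction in all 3 pairs, RAP higher, held for 3 of 33 (14.3% of all genes), and RAP lower for 0 (14.1%).

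**Figure D2:**
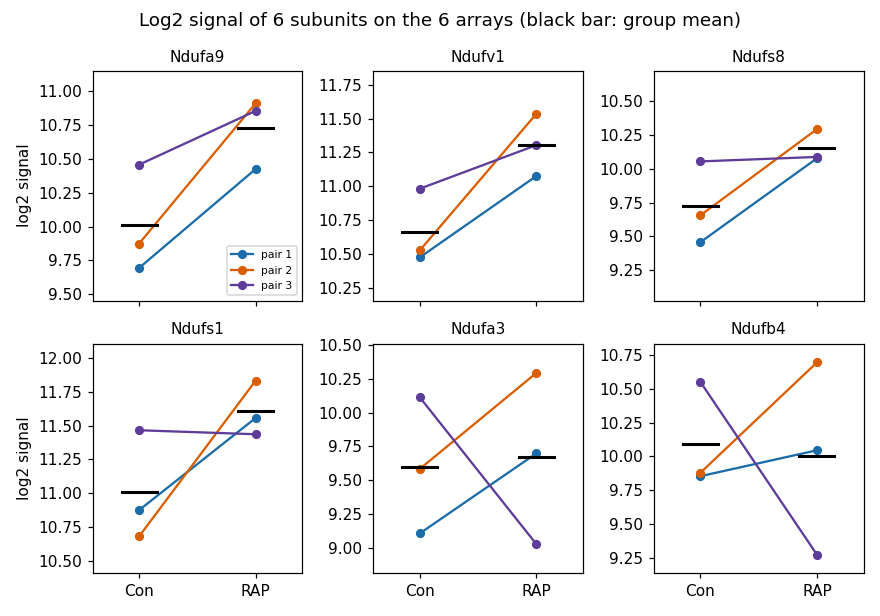
Log2 signal of Ndufa9, Ndufv1, Ndufs8, Ndufs1, Ndufa3 and Ndufb4 with control pacing and RAP, lines joining the 2 rats of each pair and black bars at the means of the groups, each panel spanning the same range of the log2 scale. Pairs 1 and 2 go up in all 6 panels, and pair 3 goes up in Ndufa9 and Ndufv1, stays level in Ndufs8 and Ndufs1 and goes down in Ndufa3 and Ndufb4.

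The other core subunits differed in the same direction without passing. Ndufs1, the largest subunit and the carrier of several iron-sulfur clusters of the N module, stood at 10.88, 10.68 and 11.47 in the controls and 11.56, 11.83 and 11.44 with RAP. Its difference was 0.60 (SE 0.26, 95% interval -0.07 to 1.27), and RAP 3 lay just under Con 3. Ndufv2, the N-module subunit with the iron-sulfur cluster set off from the main chain, stood at 10.13, 10.26 and 10.96 against 10.79, 11.22 and 10.45, with a difference of 0.37 (SE 0.32). Con 3 was higher than RAP 1 and RAP 3 in this gene. Ndufs3 of the Q module stood at 9.93, 10.08 and 10.67 in the controls and 10.49, 11.08 and 10.45 with RAP (difference 0.45, SE 0.26). Ndufs7, which holds the last iron-sulfur cluster before ubiquinone, stood at 9.64, 9.64 and 10.12 against 10.16, 10.25 and 9.95 (difference 0.32, SE 0.20). In both of these Q-module genes Con 3 lay above RAP 3 by about the same margin, 0.22 and 0.17.

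Relative to the accessory subunits, the core subunits stood higher with RAP in each pair. The median change of the 6 core genes was 0.44 and that of the 27 accessory genes 0.22. Within pairs 1, 2 and 3 the core medians were 0.61, 0.98 and -0.10 and the accessory medians 0.42, 0.71 and -0.54, so that the core stood higher by 0.19, 0.27 and 0.44. Taken array by array, the core median deviation minus the accessory one was -0.23, -0.11 and -0.08 in Con 1, 2 and 3 and 0.05, 0.10 and 0.34 in RAP 1, 2 and 3, or -0.14 ± 0.08 with control pacing and 0.16 ± 0.15 with RAP (SD, n = 3). The groups do not overlap in this measure, also with Con 3 in the comparison. The classes do overlap gene by gene, since 5 of the 27 accessory genes had a change at or above the lowest core value of 0.32, and 1 of them, Ndufa9, lay above the highest. In pair 3 all 6 core genes lay above the accessory median, and Ndufa9 was the only accessory gene above the core median. Members are not replicates, so no test was made, and the smallest two-sided p that an exact exchange of signs allows in 3 pairs is 0.25. Over the alternatives that leave out a pair or an array the difference of the medians lay between 0.16 and 0.33.

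**Figure D3:**
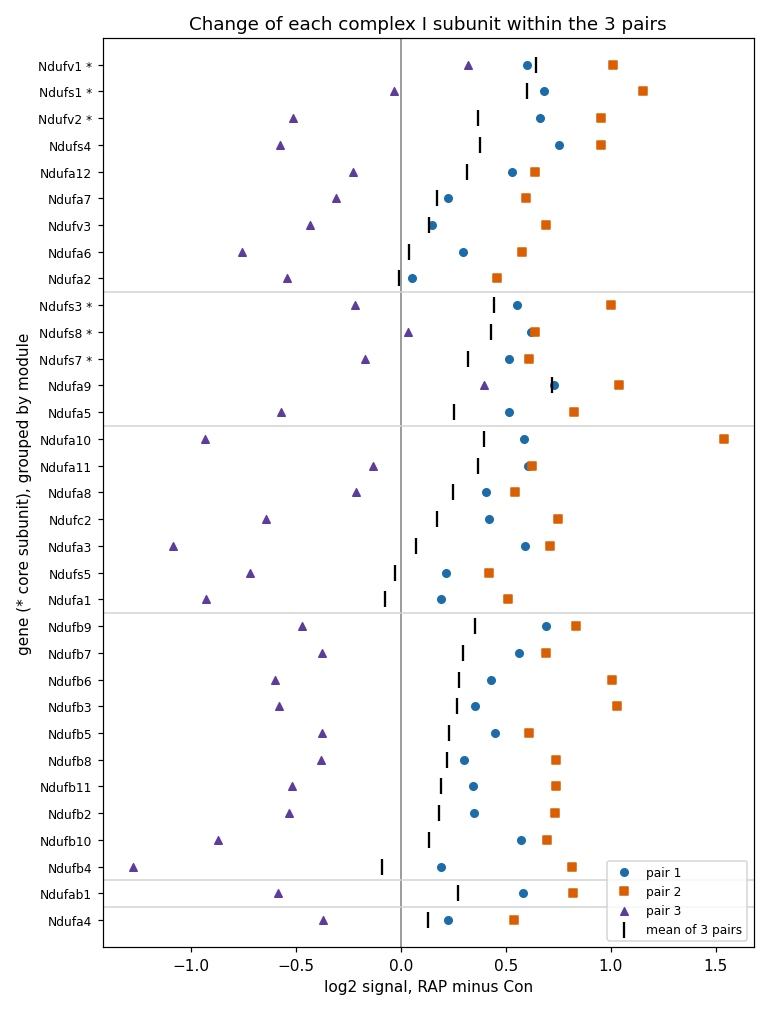
Change of each subunit (log2 signal, RAP minus Con) in pair 1 (circles), pair 2 (squares) and pair 3 (triangles), with the mean of the 3 pairs as a black tick, genes grouped by module and core subunits marked with an asterisk. Circles and squares lie to the right of 0 for all 33 genes, and triangles lie to the left for 30, farthest for Ndufb4 (-1.28) and Ndufa3 (-1.09).

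Along the complex, the Q module had the highest median change and the membrane arm the lowest. The 5 measured genes of the Q module had a median of 0.43, the 9 of the N module 0.31, the 10 of the distal membrane arm 0.23 and the 7 of the proximal membrane arm 0.17. In pair 3 the medians were -0.17, -0.43, -0.53 and -0.72 in the same order. There 0 of the 17 genes of the membrane arm were higher with RAP, against 5808 of all 11237 genes. Ndufa10 enters that count by the probe set of its own (-0.93), while the one shared with Ndufa10l1 was higher in pair 3 (0.41). Core genes sit in the Q and N modules alone, and the 6 accessory genes of the N module taken by themselves had a median of 0.15 and the 2 of the Q module, Ndufa9 and Ndufa5, one of 0.49.

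Among the accessory subunits of the matrix arm, Ndufs4, whose loss in mice and children causes Leigh syndrome, stood at 9.84, 9.94 and 10.72 in the controls and 10.59, 10.90 and 10.15 with RAP (difference 0.38, SE 0.33). Ndufa12, which resembles an assembly factor that it replaces, stood at 11.01, 11.05 and 11.45 against 11.54, 11.69 and 11.23 (0.31, SE 0.22). In both, RAP 1 and RAP 2 exceeded Con 1 and Con 2 and pair 3 ran the other way, by a larger margin in Ndufs4 (-0.57) than in Ndufa12 (-0.23). Ndufa5 of the Q module had a change of 0.26, and the N-module genes Ndufa7, Ndufv3, Ndufa6 and Ndufa2 had 0.17, 0.14, 0.04 and -0.01. Ndufab1, the mitochondrial acyl carrier protein, which is bound in both arms, stood at 10.51, 10.43 and 11.11 in the controls and 11.09, 11.25 and 10.52 with RAP (0.27, SE 0.31). RAP 1 there was level with Con 3, and RAP 3 with Con 1.

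In the proximal membrane arm, Ndufa11, which lies where complex I meets the other complexes, stood at 9.57, 9.81 and 10.13 in the controls and 10.17, 10.44 and 9.99 with RAP (difference 0.37, SE 0.20). Ndufa8, a subunit of the intermembrane space, stood at 9.74, 9.97 and 10.18 against 10.15, 10.52 and 9.97 (0.25, SE 0.20). These 2 genes had the smallest reversal of the arm in pair 3, -0.13 and -0.21. Ndufc2, Ndufa3, Ndufs5 and Ndufa1 had changes of 0.17, 0.07, -0.03 and -0.07, with pair 3 at -0.64, -1.09, -0.72 and -0.93. The distal arm, which holds the Ndufb subunits, had pair 3 changes from -1.28 to -0.37. Ndufb9 stood at 10.99, 10.97 and 11.60 in the controls and 11.69, 11.80 and 11.14 with RAP (0.35, SE 0.30). Ndufb7 stood at 9.71, 9.82 and 10.26 against 10.28, 10.51 and 9.89 (0.29, SE 0.25). In both, RAP 1 and RAP 2 were the highest arrays and RAP 3 lay under Con 3. Ndufb5 stood at 11.75, 11.78 and 12.13 in the controls and 12.20, 12.39 and 11.75 with RAP (0.23, SE 0.23), and Ndufb8 at 10.10, 10.08 and 10.59 against 10.40, 10.82 and 10.21 (0.22, SE 0.25). The changes of Ndufb6, Ndufb3, Ndufb11, Ndufb2, Ndufb10 and Ndufb4 were 0.28, 0.27, 0.19, 0.18, 0.13 and -0.09. Ndufa4 differed by 0.13 (SE 0.21).

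Ndufb4, at the lower end of the 33, stood at 9.85, 9.88 and 10.55 in the controls and 10.05, 10.70 and 9.27 with RAP, and Ndufa3 at 9.11, 9.58 and 10.11 against 9.70, 10.29 and 9.03. In both, pair 3 held the lowest RAP array and the highest control. These genes were singled out after their values were seen. Of the genes with a further probe set of their own, Ndufb4 (-0.09 and -0.09), Ndufs5 (-0.03 and -0.02) and Ndufv3 (0.14 and 0.07) had like changes on both. The annotation names 2 probe sets Ndufs6-ps1, a pseudogene for which Ndufs6 is an older name. They had changes of 0.14 (SE 0.33) and 0.19 (SE 0.28), with -0.79 and -0.58 in pair 3 and values above 0 in pairs 1 and 2. Whether they measure Ndufs6 was not settled here.

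Ndufa10 gave different values on its 2 probe sets. The probe set of Ndufa10 alone stood at 7.82, 6.96 and 8.29 in the controls and 8.40, 8.50 and 7.36 with RAP, a difference of 0.40 (SE 0.48), with 0.58, 1.54 and -0.93 in pairs 1, 2 and 3. A second probe set, which the annotation shares between Ndufa10 and Ndufa10l1, stood at 9.95, 10.16 and 10.49 against 10.52, 11.02 and 10.91. On that probe set every RAP array was above every control, and the pairs gave 0.57, 0.86 and 0.41. It rose by 0.61 (SE 0.15, limma unadjusted p = 0.011, adjusted p = 0.76) and is not among the 33, because it carries more than 1 symbol. The current gene list gives Ndufa10 as an older name of Ndufa10l1, so which of the genes encodes the subunit measured on either probe set was not settled here.

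The 250 bases before the start of transcription are shown for the members on which these results turn, from RefSeq (GRCr8, 5′ to 3′ in the direction of the gene). They are Ndufa9 and Ndufv1, which rose, Ndufs8, the other gene without overlap, Ndufa11, which holds letters of an NRF1 site, and Ndufb4 at the other end of the range. Capitals mark every match to the letters searched for on either strand, which were GCGC and TGCGC with any base between them for NRF1, a factor known for driving respiratory genes, AAGGTCA for the estrogen-related receptors, CCGGAAG for ETS factors such as GABP, AAGATGGCG for YY1, GGGCGG for a GC box and CCAAT.
Ndufa9, chr4:161374171-161374420, minus strand: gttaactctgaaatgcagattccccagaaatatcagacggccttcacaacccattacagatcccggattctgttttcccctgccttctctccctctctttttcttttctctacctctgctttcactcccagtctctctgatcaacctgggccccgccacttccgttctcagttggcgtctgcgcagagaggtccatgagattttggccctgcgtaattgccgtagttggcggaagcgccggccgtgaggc
Ndufv1, chr1:210734892-210735141, minus strand: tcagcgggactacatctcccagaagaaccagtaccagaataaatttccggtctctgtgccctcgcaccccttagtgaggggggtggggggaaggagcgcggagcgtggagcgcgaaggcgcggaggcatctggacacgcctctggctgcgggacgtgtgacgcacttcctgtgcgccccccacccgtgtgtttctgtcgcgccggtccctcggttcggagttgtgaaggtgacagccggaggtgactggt
Ndufs8, chr1:210573699-210573948, minus strand: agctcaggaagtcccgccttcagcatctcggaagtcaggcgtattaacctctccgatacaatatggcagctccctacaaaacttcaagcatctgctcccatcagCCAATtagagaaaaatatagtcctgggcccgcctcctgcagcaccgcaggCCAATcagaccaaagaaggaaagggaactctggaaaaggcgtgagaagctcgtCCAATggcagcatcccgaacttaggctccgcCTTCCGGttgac
Ndufa11, chr9:1637364-1637613, plus strand: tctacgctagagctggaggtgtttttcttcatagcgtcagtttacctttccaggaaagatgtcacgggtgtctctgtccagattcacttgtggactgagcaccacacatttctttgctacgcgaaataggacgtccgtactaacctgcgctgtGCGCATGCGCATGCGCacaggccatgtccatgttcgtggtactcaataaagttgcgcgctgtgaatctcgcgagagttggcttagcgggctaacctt
Ndufb4, chr11:76568928-76569177, plus strand: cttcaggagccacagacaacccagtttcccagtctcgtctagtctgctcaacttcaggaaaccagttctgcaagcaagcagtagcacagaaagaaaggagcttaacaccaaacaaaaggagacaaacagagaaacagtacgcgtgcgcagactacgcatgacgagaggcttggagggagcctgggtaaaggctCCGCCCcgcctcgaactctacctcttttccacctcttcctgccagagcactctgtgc
Ndufa9 and Ndufv1 hold none of these letters in the window. Ndufs8 holds 3 CCAAT matches, whose first bases lie 146, 96 and 43 bases before the start, and CTTCCGG, the ETS letters on the other strand, at 12. Ndufa11 holds 2 overlapping NRF1 matches at 97 and 91, and Ndufb4 a GC box on the other strand at 57.

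Of the 33 measured members 31 have a promoter in that table. The NRF1 letters were found in 5 of 31 (16.1%), in Ndufa5, Ndufa11, Ndufa12, Ndufs5 and Ndufv3, where 5.44% of 18999 protein-coding promoters hold them. The changes of these 5 genes were 0.26, 0.37, 0.31, -0.03 and 0.14, and none of the 5 is a core gene. ETS letters were found in 6 of 31 (19.4%, against 9.52% of all), namely Ndufa1, Ndufa2, Ndufa6, Ndufb7, Ndufs1 and Ndufs8. The estrogen-related receptor letters were in 2 of 31 (6.45%, against 3.21%), Ndufb2 and Ndufs5, and the YY1 letters in 0 (0.784% of all). GC boxes were in 10 of 31 (32.3%, against 40.3%) and CCAAT in 9 of 31 (29%, against 35.5%). A match of letters is a description and no evidence of binding.

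Of the genes that assemble complex I, 10 of 19 listed were measured. Of these 1 rose and 0 fell, where 2.94% of all genes rose and 3.45% fell. Ndufaf4, an assembly factor of the early Q-module intermediate, stood at 7.87, 7.84 and 8.32 in the controls and 8.58, 8.72 and 8.47 with RAP, with every RAP array above every control. The rise was 0.58 (SE 0.19, limma unadjusted p = 0.030, adjusted p = 0.76), with 0.71, 0.88 and 0.15 in the pairs, and it did not pass without replicate 1 or replicate 2. The lowest change was that of Tmem126b, a factor for the membrane arm, at 0.01 (SE 0.16). The median of the 10 was 0.31, and 4 of them were higher with RAP in pair 3. Of 9 measured regulators of mitochondrial genes 0 passed, from Ppargc1a, the coactivator PGC-1α (0.55, SE 0.41), to Nrf1 (-0.17, SE 0.13). The estrogen-related receptors Esrrg, Esrrb and Esrra differed by 0.54 (SE 0.22), 0.51 (SE 0.23) and 0.36 (SE 0.15), without passing.

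Complexes II to V had much the same course over the arrays. Their 36 measured genes had a median change of 0.25, with 0.43, 0.67 and -0.29 in pairs 1, 2 and 3, and 6 of 36 were higher with RAP in pair 3. Of them 5 rose, where 2.94% of all genes did, and 0 fell. By the methods' paired test 2 rose, and leaving out a pair or an array gave 1 to 25. The 5 were the complex III core proteins Uqcrc1 (0.70, SE 0.15) and Uqcrc2 (0.67, SE 0.18), the succinate dehydrogenase flavoprotein Sdha (0.62, SE 0.19) and the ATP synthase subunits Atp5f1d (0.58, SE 0.13) and Atp5f1a (0.47, SE 0.17). In pair 3 these 5 were higher with RAP as well, by 0.61, 0.33, 0.26, 0.51 and 0.22 in the same order. Sdhc (0.04) was the other gene higher there. Cox7c (-0.80) and Atp5pf (-0.77) were the lowest, so a spread between subunits in pair 3 is not particular to complex I. Whether complex I differs from these complexes was not tested.

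Markers of other tissue components moved over the same arrays. Of the cardiomyocyte markers (11 of 12 measured) Myh6, Actn2, Mybpc3 and Ttn rose and 0 fell. Over all genes 2.94% rose and 3.45% fell. The cardiomyocyte markers had median deviations of -0.36, -0.33 and 0.01 in Con 1, 2 and 3 and 0.13, 0.50 and 0.08 in RAP 1, 2 and 3. That is the same order of arrays as in the core subunits apart from Con 3. The core subunits stood at -0.49, -0.37, 0.16, 0.15, 0.54 and 0.07 on the 6 arrays and the accessory ones at -0.27, -0.26, 0.24, 0.10, 0.43 and -0.27. Within pair 3 the cardiomyocyte markers differed by a median of 0.12, the core subunits by -0.10 and the accessory subunits by -0.54. Ventricular markers ranged from -0.82 to 1.26 over the controls, with Con 3 highest, and from -0.26 to 0.26 over the RAP arrays. The medians of the macrophage markers (12 of 12 measured) ran opposite to the subunits, at -0.57, -1.77 and 0.70 in pairs 1, 2 and 3. Those of the fibroblast markers (8 of 8) did likewise, at -0.51, -1.14 and 0.61. Single markers departed from this, since Cx3cr1 (-0.17) and Tcf21 (-0.39) were lower in pair 3 and Lum (0.09) was higher in pair 1. Of the 10 adipocyte markers 4 rose, with changes over the list from -0.26 (Cfd) to 1.09 (Adipoq, SE 0.21). Of 6 mesothelial markers 3 fell. The part of these components in the subunits' differences was not tested.

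**Figure D4:**
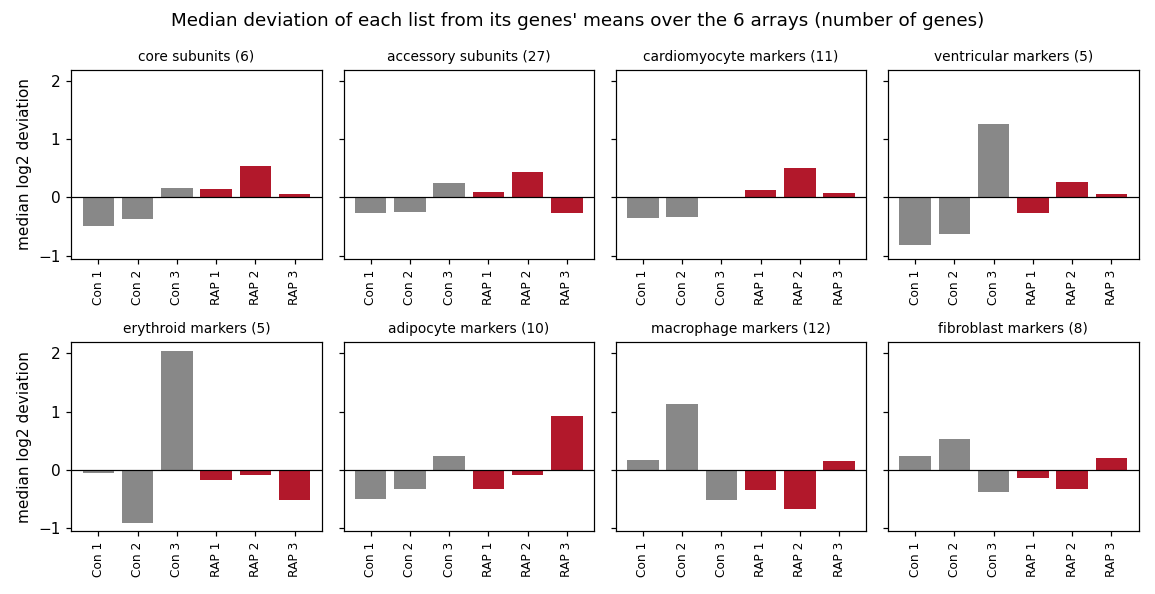
Median log2 deviation of core subunits, accessory subunits and markers of 6 tissue components from their genes' means over the 6 arrays, controls in grey and RAP in red, with the number of genes in brackets. Con 3 stands out in ventricular (1.26) and erythroid (2.05) markers and RAP 3 in adipocyte markers (0.93), and RAP 2 is highest in core subunits (0.54), accessory subunits (0.43) and cardiomyocyte markers (0.50).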

How the data were processed

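Total RNA from the left atria of 6 rats had been hybridized to 1 Affymetrix Rat Gene 1.0 ST array each. The authors made the deposited log2 values in Partek Genomics Suite (version not stated) by RMA (robust multiarray average) at its default settings, a background correction followed by quantile normalization and a summary per probe set. RMA compresses differences of dim probe sets and, by forcing 1 distribution, hides a change common to most genes. The medians of the 6 arrays lay between 5.82 and 5.85. The number of arrays limits the precision.

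Of 29214 probe sets, the array annotation gives 15310 a single gene symbol, 323 several and 13581 none. Those with a log2 signal above 5 on at least 1 array (19907) were fitted with limma 3.58.1 in R 4.3.3, blocked on the pair and with moderated variances (2 residual and 2.76 prior degrees of freedom). Rises and falls have a fold change above 1.3 and an unadjusted p under 0.05, the thresholds of the study's methods. The Benjamini-Hochberg adjustment ran over all 19907 of them. The study's paired test was run as an alternative. The fit was tested on simulated data. The rats are separate animals, and the pairs are numbered in the sample labels and described in the study's methods. The deviations of paired arrays from their group means had correlations of 0.22, -0.24 and -0.32 in pairs 1, 2 and 3.

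The members and gene lists were chosen with earlier results of these data known. Values on each array are given for the core subunits and the 10 accessory subunits with the smallest p, and, after their values were seen, for Ndufb4, Ndufa3 and Ndufa10. Of the assembly factors and regulators, genes past the thresholds and the highest and lowest change are named. The estrogen-related receptors were added outside that rule. Of complexes II to V the 4 largest changes past the thresholds are named. Atp5f1a, Sdhc, Cox7c and Atp5pf were added after their values were seen. Alternatives were no replicate block, the methods' paired test, a variance trend, array weights, no and a stricter filter (above 6 on at least 3 arrays), further scalings, the mean of a gene's probe sets, and leaving out each pair or array. Motifs were searched as exact letters in the 250 bases before each RefSeq gene start. The annotation names no genome build, so no position is given for probe sets.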

Additional observations from a re-analysis of the deposited data

Results flagged for a closer look

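The probe set shared by Ndufa10 and Ndufa10l1, which none of the counts above uses, was higher on all 3 RAP arrays than on any control, with a change of 0.61. The probe set of Ndufa10 alone differed by 0.40 and had its groups overlapping. Which gene either probe set measures was not tested.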

How the results depend on the processing

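The pair is a block in the values above, since each pair was operated on and paced together. Without the replicate block 4 subunits (Ndufs1 and Ndufs8 added) and 3 assembly factors rose. With the same thresholds, the methods' paired t-test gave counts of 0 subunits, 0 assembly factors and 2 genes of complexes II to V. With array weights, which put most weight on pair 1, they were 21, 4 and 23, and 10.3% of all genes rose. Without a filter 2 assembly factors passed. Leaving out a pair or an array gave 0 to 26 risen subunits, 0 to 5 assembly factors, 1 to 25 genes of complexes II to V and medians of the subunits from -0.038 to 0.62. The number of fallen subunits was 0 under every alternative run. Ndufa9 did not pass by the paired t-test, without replicate 1, or, unpaired, without Con 1, Con 2, RAP 2 or RAP 3, and Ndufv1 not by the paired t-test or without replicate 1 or 2. The cause of these shifts was not tested.

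With array weights Ndufa1, Ndufa2, Ndufb4, Ndufs5 and Tmem126b had 0.16, 0.062, 0.18, 0.19 and -0.069. With arrays centred on their medians Ndufa2 and Ndufs5 had 0.030 and 0.012, and with further quantile normalization Ndufa2 had 0.022. Leaving out a pair or an array also turned signs, that of Ndufa10 with its change of 0.40 among them, with ranges of Ndufa3 -0.25 to 0.65, Ndufa6 -0.23 to 0.44, Ndufb10 -0.15 to 0.63, Dmac2 -0.052 to 0.14, Ndufa4 -0.074 to 0.38, Ndufa5 -0.029 to 0.67, Ndufa7 -0.040 to 0.41, Ndufa10 -0.17 to 1.06, Ndufab1 -0.0010 to 0.70, Ndufb2 -0.093 to 0.54, Ndufb3 -0.11 to 0.69, Ndufb6 -0.085 to 0.72, Ndufb8 -0.038 to 0.52, Ndufb11 -0.086 to 0.54, Ndufc2 -0.11 to 0.58, Ndufv3 -0.14 to 0.42, Tmem126b -0.15 to 0.14, Ndufa1 -0.37 to 0.35, Ndufa2 -0.24 to 0.25, Ndufb4 -0.54 to 0.50, Ndufs5 -0.25 to 0.32 and Gabpa -0.12 to 0.0017. With 3 pairs and 1 whole-tissue array a rat, small changes of single subunits could not be resolved. The control and the RAP array of pair 3 also carried markers of other tissue, whose part in these shifts was not tested.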

Other observations

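The starts of Ndufs8 and Ndufv1, the 2 subunits whose groups did not overlap, lie 161 kb apart on chromosome 1 (GRCr8). Of 9 protein-coding genes that start between them 3 were measured. Aldh3b1 fell by 0.60 (SE 0.19) and Acy3, an aminoacylase, fell by 0.98 (SE 0.28) by limma's unadjusted threshold, each lower in all 3 pairs, and Doc2g differed by 0.17 (SE 0.28). These genes were looked up after the values of Ndufs8 and Ndufv1 were seen.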
